A study of Mus musculus with 2 samples.

Results

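The genes described here code for the proteins of the cytosolic ribosome. They were taken from the gene lists of the deposited matrices by symbol: Rps or Rpl followed by a digit, together with Rpsa, Rplp0, Rplp1 and Rplp2, leaving out 5 symbols that end in -ps (pseudogenes) and 10 symbols of the Rps6k kinases. The rule found 86 of 32285 genes, spread over 19 chromosomes. Of these, 77 code for the standard proteins of the small (31 genes) and the large (46 genes) subunit and are called core genes below. Another 8 are copies of a core gene: Rpl3l, Rpl7l1, Rpl10l, Rpl22l1, Rpl36al, Rpl39l, Rps27l and Rps27rt. The remaining gene, Rps19bp1, matched the rule by its symbol but codes for a nucleolar protein that binds Rps19 and is not part of the ribosome. In all, 85 of the 86 genes had at least 20 unique molecular identifiers (UMIs) over both libraries, and Rpl10l, a testis gene, had 0.

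A cytosolic ribosome holds 1 copy of nearly every one of these proteins, so cells make them in closely matched amounts, and their mRNAs are among the most abundant of a growing cell. Most of these mRNAs begin with a cytosine and a run of pyrimidines, the 5′ terminal oligopyrimidine tract, through which the growth kinase mTORC1 controls their translation. Quiescent muscle stem cells (MuSCs) translate little, activated MuSCs build ribosomes before they divide, and striated muscle is known for replacing Rpl3, a large subunit protein close to the peptidyl transferase center, with its copy Rpl3l.

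Cells had been sorted from the plantaris muscle of Pax7rtTA; TRE-H2B-GFP mice, in which the Pax7 promoter drives the reverse tetracycline activator and doxycycline then switches on a green histone in MuSCs. Mice of both groups were 26 weeks old and had drunk water with doxycycline at 2.0 mg/ml and 2% sucrose for 2 weeks, and they were given either sham surgery (Sham) or mechanical overload of the plantaris by removal of its synergists (MOV) for 5 days. The deposited series text names the green signal as the sorted property, whereas the methods describe VCAM+ cells without CD31, CD45 and SCA1, and the labels speak of 1 mouse per library where the methods describe more. There was 1 library per group, so the effect of overload and the difference between the libraries cannot be told apart, no test was made, and all intervals (95%) cover counting error only.

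The Sham library held 1100 cells and 7302661 UMIs (median 4116.5 per cell), of which 12.4% fell on the ribosomal protein genes, and the MOV library held 3854 cells and 88498487 UMIs (median 16836), of which 22.8% did. After removal of cells with 10% or more mitochondrial UMIs and of likely doublets, 734 and 2985 cells were left. Of these, 678 and 2492 fell in clusters named from marker lists as MuSCs, myocytes, fibres, Pdgfra cells or tenocytes. The ribosomal protein genes were left out of the clustering and of the naming. A name such as quiescence-marker MuSC stands for a cluster that resembles those cells by its markers, and the ending "-like" is left off. The libraries shared 44 cell barcodes, and in 39 of these the MOV copy was the shallower one, with a median of 2.12% of the UMIs of the Sham copy. Of the MOV copies, 21 were among the 164 MOV droplets of the fibre clusters and 0 among the MOV quiescence-marker MuSCs, and results on MOV fibre droplets are therefore given with and without them.

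The first bases of some of these genes are shown because they show the sequence feature by which the family is known to be controlled, in core genes and copies with and without it. Each line holds 30 bases of RefSeq (build GRCm38.p6) around an annotated start, with the first 10 lying before it, in lower case. Capitals mark the run at the start, meaning a C as the first base followed by at least 4 more bases that are all C or T.
Rps6 (chr4:86857348-86857377, minus strand): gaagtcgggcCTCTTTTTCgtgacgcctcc
Rpl38 (chr11:114668570-114668599, plus strand): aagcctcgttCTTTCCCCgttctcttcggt
Rplp2 (chr7:141447641-141447670, plus strand): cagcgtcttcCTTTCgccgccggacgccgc
Rps27 (chr3:90213629-90213658, minus strand): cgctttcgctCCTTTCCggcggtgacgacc
Rps27rt (chr9:114982720-114982749, minus strand): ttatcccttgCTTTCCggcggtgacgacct
Rps27l (chr9:66946076-66946105, plus strand): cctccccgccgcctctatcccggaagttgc
Rpl39 (chrX:37085203-37085232, minus strand): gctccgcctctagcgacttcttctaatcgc
Rpl39l (chr16:10170218-10170247, plus strand): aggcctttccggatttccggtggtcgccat
Rpl22l1 (chr3:28805498-28805527, plus strand): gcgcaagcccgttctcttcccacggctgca
Rpl3l (chr17:24727816-24727845, plus strand): ttctagctctgtcatttgacctctggtgcc
Such a run stood at 13 of 67 annotated starts of the 57 core genes that could be matched (19.4%), and at 809 of 32773 starts of all other genes (2.47%). Among the 8 copies and Rps19bp1 it stood at 1 of 11 starts (9.09%), that of Rps27rt. Over the bases shown, its sequence from the start onward matches that of Rps27 with an offset of 1 base. The search looked only at the exact annotated base on the gene's own strand, so a start annotated 1 base away does not count. A match describes these letters and not a regulated mRNA.

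The share of all UMIs on the ribosomal protein genes divided the named cells into 3 levels. MuSCs of every state, cycling MuSCs and early myocytes of the MOV library lay between 25.2% and 28.2%. Pdgfra cells, which are the fibro-adipogenic and fibroblast cells of muscle, and tenocytes lay lower. Among the MuSC, myocyte, fibre, Pdgfra and tenocyte classes, the fibre droplets of the Sham library lay lowest at 9.53% (95% interval 9.50 to 9.57, 467 droplets). These droplets carry the RNA of mature muscle fibres. The few Sham Schwann cells (9.68%, 10 cells) and mural cells (8.84%, 5 cells) were about as low or lower. In the Sham library, quiescence-marker MuSCs stood at 24.2% (24.1 to 24.3, 93 cells), fibro-adipogenic Pdgfra cells at 15.0% (14.9 to 15.1, 29 cells) and tenocytes at 12.7% (12.5 to 12.8, 22 cells). In the MOV library, the corresponding shares were 27.1% in quiescence-marker MuSCs (250 cells), 17.3% in fibro-adipogenic Pdgfra cells (359 cells), 19.0% in activated fibroblasts that carry Pdgfra (268 cells) and 15.2% in tenocytes (111 cells). Quiescence-marker MuSCs, fibro-adipogenic cells and tenocytes thus kept the same order in both libraries, and the MOV droplets of the fibre clusters, taken up further on, did not follow the Sham ones.

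Among the MOV MuSC states the highest share was that of matrix MuSCs, named from genes of the extracellular matrix, at 28.2% (277 cells). Activated MuSCs stood at 27.8% (232 cells), S-phase MuSCs at 27.5% (55 cells), interferon MuSCs at 26.2% (52 cells), G2/M MuSCs at 26.0% (302 cells), immediate-early MuSCs at 25.8% (61 cells) and histone-high cycling MuSCs at 25.2% (244 cells). These class values lay closer together than the quartiles of the cells within any of these classes. Within the MOV quiescence-marker MuSCs, single cells ran from 9.89% to 37.6% with quartiles of 23.9% and 29.7%, and within the Sham ones from 7.72% to 39.7% with quartiles of 19.4% and 27.1%. The Sham fibre droplets ran from 2.36% to 19.6% with quartiles of 7.46% and 11.0%, so that their middle range did not overlap with that of the MuSCs of either library. The G2/M class joined a cluster of 27.0% with a median of 71707.5 UMIs per cell and another of 23.5% with 28901 UMIs.

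**Figure D1:**
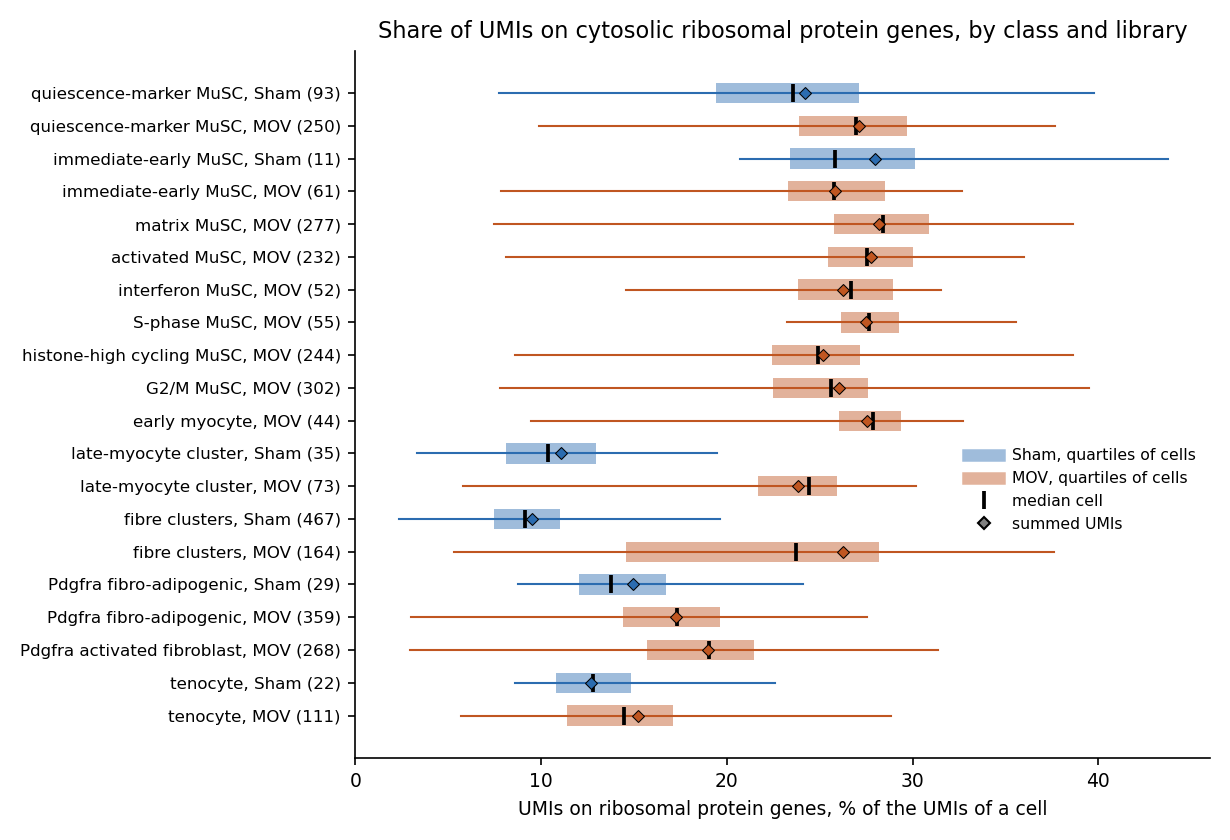
Share of UMIs on the ribosomal protein genes (percent) for MuSC, myocyte, fibre, Pdgfra and tenocyte classes of at least 10 cells, with cell numbers in parentheses. Diamonds are the share of the summed UMIs, bars the quartiles, ticks the median and lines the range over cells. The diamonds of the MuSC, cycling and early myocyte classes sit between 24.2% and 28.2%, those of the Pdgfra cells and tenocytes between 12.7% and 19.0%, and the Sham fibre droplets at 9.53%.

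The genes with the most UMIs included Rps2 (566793 over both libraries, chr17:24718116-24721929, plus strand, GRCm38.p6), Rpl13, Rpsa and Rplp1. Levels are given as CPM, the UMIs of a gene per 1000 times 1000 UMIs after adding up all cells of the class, and a transcript is counted once by its 3′ end whatever its length. Rpl13, of the large subunit, had 5598 CPM in Sham and 7204 CPM in MOV quiescence-marker MuSCs, and 2100 CPM in Sham fibre droplets. Rplp1, a protein of the ribosomal stalk, had 4582, 4977 and 2526 CPM in the same order. Rpl13 followed the share of the family as a whole, and Rplp1 fell less than the family in the droplets. Rps2, which lies at the mRNA entry site of the small subunit, fell still less there. It had 2933 CPM in Sham and 5052 CPM in MOV quiescence-marker MuSCs and 2562 CPM in Sham fibre droplets. Rpsa, also of the small subunit, had 3303 and 5202 CPM in those MuSCs and 1598 CPM in the droplets.

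The states of non-cycling MuSCs in the MOV library were each compared with all other MuSCs of that library, to see whether a state differed in its ribosomal protein mRNAs. No core gene was 1.5 fold higher or lower in any of the 5 states, taking genes with at least 20 UMIs over the 2 groups. The median log2 ratio over the 84 genes with enough UMIs was 0.04 in quiescence-marker, −0.04 in immediate-early, 0.09 in matrix, 0.08 in activated and −0.02 in interferon MuSCs. Over all genes tested the medians were −0.14, 0.15, 0.04, −0.07 and 0.08. The middle range of the core genes was 0.21, 0.12, 0.14, 0.09 and 0.14 log2 units wide, against 0.97, 0.65, 0.71, 0.44 and 0.75 for all genes with at least 500 UMIs. The core genes thus kept closely to a common value within each state. The genes with at least 500 UMIs were not matched to the core genes for UMI counts. The part of counting error in their wider range was not tested.

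The members past 1.5 fold in these states were all copies. In quiescence-marker MuSCs 1 gene was higher (18.4% of all genes tested were) and 1 lower (31.2%), the lower one being Rps27l. In immediate-early MuSCs 1 was higher (27.0% of all genes) and 1 lower (13.0%), in matrix MuSCs 0 were higher (18.2%) and 3 lower (18.7%), in activated MuSCs 0 were higher (6.42%) and 0 lower (18.6%), and in interferon MuSCs 1 was higher (25.7%) and 0 lower (19.8%). The higher gene was in each case Rpl3l, on 1 or 2 UMIs in the state, with log2 ratios of 0.64 (−2.51 to 2.70), 0.91 (−4.46 to 3.57) and 2.54 (−0.61 to 4.60) whose intervals all include 0. The lower gene of immediate-early MuSCs was Rps27l. The 3 lower genes of matrix MuSCs were Rps27l, Rpl7l1 and, on 2 UMIs, Rpl3l (−0.65, −3.80 to 1.42).

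Some core genes stood at the ends of the narrow range in several states, all by less than 1.5 fold. Rpl10, a large subunit protein that joins the subunit last, had 3994 CPM in quiescence-marker MuSCs and 4240 CPM in matrix MuSCs, against 3170 and 3048 CPM in the other MuSCs (log2 ratios 0.33 and 0.48). Rps27 had 2576 CPM in quiescence-marker and 2490 CPM in matrix MuSCs, with log2 ratios of 0.35 and 0.33. Both genes therefore stood slightly above the family in the same 2 states. Rps2 went the other way, with 5052 CPM in quiescence-marker MuSCs against 7361 CPM in the others (log2 ratio −0.54, −0.57 to −0.52), and so did Rpl41, the smallest protein of the ribosome, with 3428 against 4934 CPM (−0.53). In matrix MuSCs Rpl10a was also high, at 3716 against 2992 CPM (0.31). Activated MuSCs had Rps6 (2232 CPM, 0.22), the protein that S6 kinase phosphorylates, and Rps3a1 (5250 CPM, 0.19) at the upper end and Rpl22l1 (1240 CPM, −0.12) at the lower end. In interferon MuSCs Rplp1 (4138 CPM, −0.33) and Rpl41 (3923 CPM, −0.31) were lowest among core genes. In immediate-early MuSCs Rpl10 (3656 CPM, 0.19) and Rpl10a (3344 CPM, 0.11) were highest, and Rpl36al (735 CPM, −0.30) and Rps19bp1 (66.6 CPM, −0.37) were low. The other MuSCs in these comparisons include the cycling ones, in which Rpl10 had 2730 to 2887 CPM. All non-cycling MuSCs together had 3888 CPM of Rpl10, more than the immediate-early ones.

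**Figure D2:**
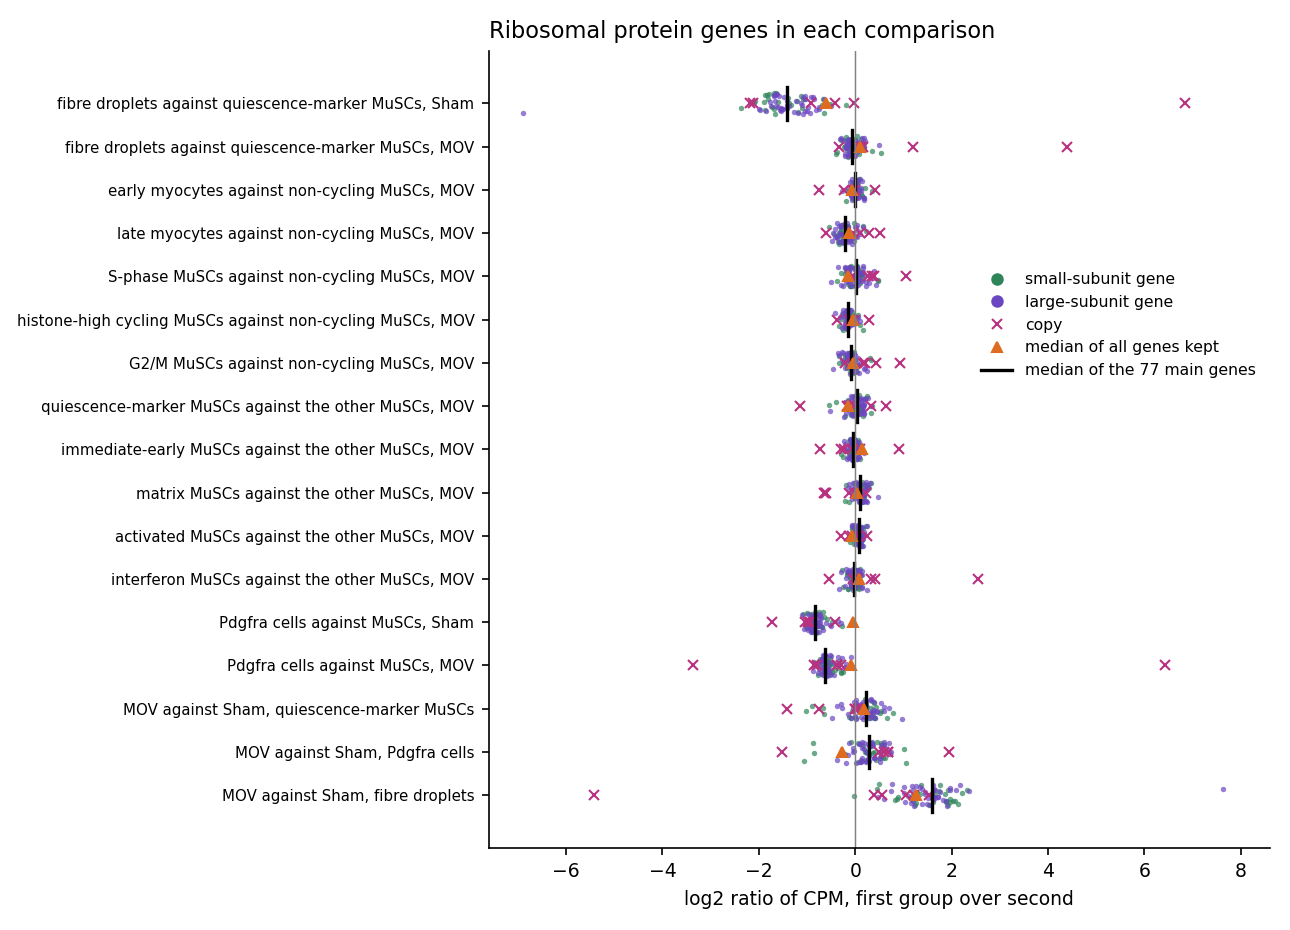
Log2 ratios of CPM of the ribosomal protein genes in each comparison, with dots for the core genes by subunit, crosses for copies, black bars for the median of the 77 core genes (named main genes in the key) and triangles for the median of all genes tested. The core genes lie close to 0 among the MOV MuSC states and to the left of 0 in Sham fibre droplets and in the Pdgfra cells of both libraries.

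Cycling cells and early and late myocytes of the MOV library were compared with the 872 non-cycling MuSCs, since growth and division both need new ribosomes. The member medians were 0.02 in S-phase, −0.14 in histone-high and −0.08 in G2/M MuSCs, −0.00 in early myocytes, which express Myog, and −0.21 in the late myocytes, against −0.15, −0.06, −0.05, −0.08 and −0.14 for all genes. No core gene passed 1.5 fold in any of these 5 comparisons. In S-phase MuSCs 2 members were higher (22.0% of all genes) and 0 lower (33.2%), in histone-high MuSCs 0 were higher (14.7%) and 0 lower (17.2%), and in G2/M MuSCs 1 was higher (19.6%) and 0 lower (22.6%). In early myocytes 0 were higher (14.5%) and 1 lower (25.3%), and in late myocytes 0 were higher (21.6%) and 1 lower (32.3%). The higher genes were Rps27l and Rps19bp1 and the lower one, in both kinds of myocyte, was Rps27rt. With a mitochondrial limit of 5% the late myocyte median was 0.02 rather than −0.21.

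Among the core genes, Rpl10 was lowest or nearly so in each of these groups. It had 2730 CPM in S-phase, 2887 CPM in histone-high and 2826 CPM in G2/M MuSCs, 3207 CPM in early and 2798 CPM in late myocytes, against 3888 CPM in non-cycling MuSCs (log2 ratios from −0.51 to −0.28). Rps4x, the X-linked small subunit protein, had 3803 CPM in S-phase, 3898 CPM in G2/M and 3378 CPM in late myocytes against 4951 CPM (log2 ratios −0.38, −0.35 and −0.55). Rps27 had 1872 CPM in histone-high MuSCs against 2355 CPM (−0.33). These genes lay below the member median of each comparison, which in late myocytes was itself −0.21. At the upper end, Rps2 had 8767 CPM in S-phase MuSCs and 6984 CPM in histone-high ones, against 6292 CPM (0.48 and 0.15). In early myocytes Rps15 was among the highest core genes at 2393 against 2084 CPM (0.20), and Rpl22l1 was low at 1074 against 1267 CPM (−0.24).

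Within a library, the largest of the member medians was that of Sham fibre droplets against Sham quiescence-marker MuSCs. All 77 core genes had CPM ratios below 1 in the droplets, and of the 84 members with enough UMIs 78 were at least 1.5 fold lower (50.2% of all genes tested were) and 1 was higher (35.2%). The median log2 ratio of the members was −1.42, against −0.61 for all 7297 genes. The lower genes came from both subunits, with medians of −1.54 for the small and −1.42 for the large subunit. Rps19, a small subunit protein mutated in Diamond-Blackfan anemia, had 780 CPM in the droplets and 4021 CPM in the MuSCs (log2 ratio −2.37, −2.45 to −2.29). Rpl7l1 had 32.5 against 148 CPM (−2.19, −2.60 to −1.77). Rps2 with 2562 against 2933 CPM (−0.20) and Rps27l with 345 against 350 CPM (−0.02) did not pass, and Rps2 was the core gene closest to its MuSC level. The 1 higher gene was Rpl3l, and its partner Rpl3 fell the most of all members, with a log2 ratio of −6.90.

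The size of this difference depended on the scaling, and each total it rests on includes the fibre genes. With fibre-list and mitochondrial genes left out of the totals the shares were 12.6% in the droplets and 25.7% in the MuSCs. TMM and median-of-ratios factors added 0.68 and 1.05 to every log2 ratio, so that the member medians became −0.74 and −0.37 with 49 and 29 members at least 1.5 fold lower, and members such as Rps2, Rps25, Rps29, Rpl24, Rpl29, Rpl36al and Rps27l came out higher in the droplets with TMM factors, with more genes doing so under median-of-ratios factors. The depth also differed, at a median of 3466 UMIs in the droplets and 7808 in the MuSCs, and its part in the result was not tested.

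Rpl3 and Rpl3l exchanged places between MuSCs and fibres. Rpl3 lies at chr15:80077791-80091868 (minus strand) and Rpl3l at chr17:24727820-24736143 (plus strand, GRCm38.p6). In the Sham fibre droplets Rpl3l had 1706 UMIs (604 CPM) and Rpl3 had 38 (13.4 CPM), so that Rpl3l made up 97.8% of the pair (97.0 to 98.5). In Sham quiescence-marker MuSCs Rpl3l had 4 UMIs (5.29 CPM) and Rpl3 had 1216 (1607 CPM), a share of 0.328% (0.0894 to 0.837). The log2 ratios of fibre droplets to MuSCs were 6.83 (5.48 to 8.71) for Rpl3l and −6.90 (−7.41 to −6.44) for Rpl3. No other pair of members came near such an exchange.

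The exchange was seen in the Sham droplets led by Myh1, Myh2 or Myh4, grouped by the myosin heavy chain with the most UMIs. Myh7, the other chain considered, led no Sham droplet. Rpl3l made up 98.7% of the pair in 125 droplets led by Myh1 (520 and 7 UMIs), 98.8% in 57 led by Myh2 (324 and 4 UMIs) and 97.0% in 257 led by Myh4 (837 and 26 UMIs), with intervals that overlap. Myh1, Myh2 and Myh4 are the heavy chains of the fast fibres that make up most of the plantaris. Across processing alternatives the share over all Sham fibre droplets stayed between 95.7% and 98.0%. In the MOV library, whose fibre droplets are taken up further on, the shares were 0.513% (Myh1), 2.65% (Myh2) and 0.672% (Myh4).

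In the MOV library the MuSCs held almost only Rpl3. Rpl3l had 2 UMIs in quiescence-marker (0.671 CPM), 6 in G2/M (0.377 CPM) and 4 in S-phase MuSCs (1.07 CPM), while Rpl3 had 2319, 2758 and 2975 CPM there. Early myocytes had 0 UMIs of Rpl3l, which allows up to 2.08 CPM by the limit of 3 counts, and 2718 CPM of Rpl3. The late myocytes of the MOV library, with Myog at 2668 CPM and Acta1, the skeletal actin, at 7653 CPM, had 3 UMIs of Rpl3l and 11742 of Rpl3, a share of 0.0255% (0.00527 to 0.0746). These MOV cells, with Myog and Acta1 both high, thus held the mRNA of Rpl3 and hardly any of Rpl3l.

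In the Sham library 35 droplets lay in the same late myocyte cluster, but their RNA went against that name. They had Myog at 3.90 CPM, Acta1 at 52195 CPM and a ribosomal protein share of 11.0%, close to the fibre droplets. Rpl3l had 82 UMIs and Rpl3 had 44 in them, which is 65.1% of the pair (56.1 to 73.4, and 50% to 94.2% across the alternatives). Their Rpl36al share was also the highest of any class, at 66.5% (61.7 to 71.1) of the pair with Rpl36a.

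Since a droplet can carry free RNA, the share of cells with a UMI of Rpl3l was compared at a common depth of 2000 UMIs, leaving out shallower cells. It was 71.9% in Sham fibre droplets (233 of 324, with 143 left out), 6.60% in MOV fibre droplets (7 of 106, with 58 left out) and 1.09% in Sham quiescence-marker MuSCs (1 of 92). Before thinning these shares were 75.2%, 13.4% and 3.23%. In the MOV fibro-adipogenic Pdgfra cells, which should lack the gene, it was 0 of 359 (upper limit 1.02%). In the Sham library, whose free RNA the Sham droplets share, it was 0 of 28 fibro-adipogenic cells (upper limit 12.3%) and 0 of 22 tenocytes (upper limit 15.4%). The share in Sham fibre droplets lay above all of these limits. The median depths before thinning were 5458.5 UMIs in these droplets, 11602 in the Sham and 34818 in the MOV fibro-adipogenic cells.

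**Figure D3:**
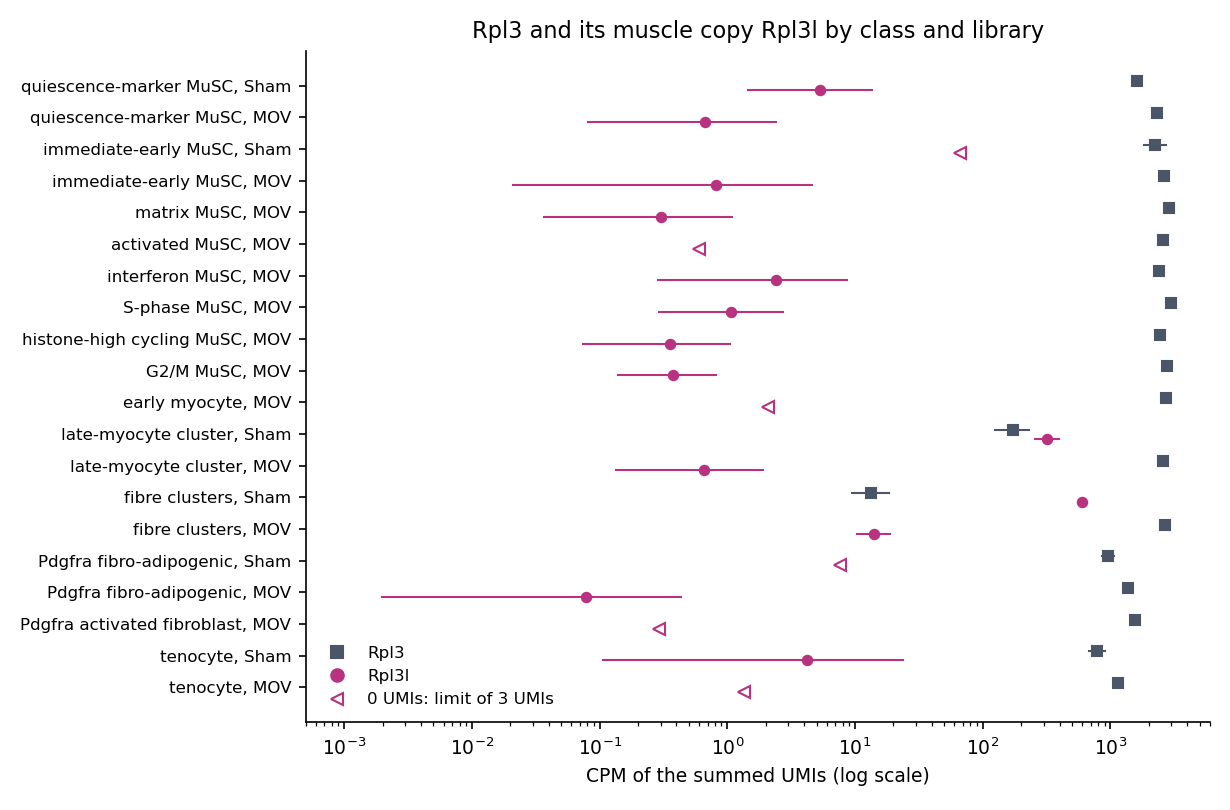
CPM of Rpl3 and Rpl3l on a logarithmic axis in the classes of both libraries, with 95% counting intervals and open triangles at the limit of 3 UMIs where Rpl3l had 0. Rpl3l lies above Rpl3 in Sham fibre droplets (604 and 13.4 CPM) and in the Sham droplets of the late myocyte cluster (320 and 172 CPM), and below it elsewhere.

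The elongation factor pair Eef1a1 and Eef1a2, which brings aminoacyl-tRNA to the ribosome and is known to switch to Eef1a2 in mature muscle, behaved in the same way. Eef1a1 had 16.3 CPM in Sham fibre droplets and 6054 CPM in Sham quiescence-marker MuSCs (log2 ratio −8.54), and Eef1a2 had 899 and 7.93 CPM (6.82). Eef1a2 made up 98.2% of the pair in the droplets.

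The MOV droplets of the fibre clusters did not carry much fibre RNA, and this touched each result on them. Summed over the fibre marker list they had 15938 CPM, against 229890 CPM in the Sham droplets, and Acta1 stood at 5272 CPM against 53460.1 CPM. They had Myog at 222 CPM, Mki67 at 34.1 CPM and Pax7 at 49.4 CPM, where the Sham droplets had 1.77, 0 and 2.48 CPM. Their ribosomal protein share was 26.2% (26.3% without the shared barcodes), the median log2 ratio of the members to MOV quiescence-marker MuSCs was −0.05 with 2 members higher (30.1% of all genes) and 0 lower (20.5%), and Rpl3l made up 0.526% of the pair (46 and 8707 UMIs), or 0.469% without the shared barcodes. By these values most of the MOV droplets lay closer to the MOV MuSCs than to the Sham fibre droplets, against their label.

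The MOV droplets were therefore split by the share of their UMIs on Acta1, with the shared barcodes left out, an alternative chosen after the data had been seen. In 97 droplets with less than 0.5% Acta1, Rpl3l had 2 UMIs against 8532 of Rpl3 (0.0234%), and the ribosomal protein share was 27.3%. In 13 droplets with 2% to 4% Acta1, Rpl3l had 11 UMIs against 46 (19.3%, 10.0 to 31.9), with a ribosomal protein share of 16.3%. Only 2 of these 13 droplets held Rpl3l, and 1 droplet gave 33 of the 46 Rpl3 UMIs. In 24 droplets with 4% or more, Rpl3l had 27 UMIs against 75 (26.5%, 18.2 to 36.1), with a ribosomal protein share of 12.1%. Here 12 droplets held Rpl3l, and 1 droplet gave 23 of the 75 Rpl3 UMIs. The intervals take UMIs as independent, so they leave out this spread between droplets. The Rpl3l share of the pair thus rose and the ribosomal protein share fell with more Acta1, though the last 2 Rpl3l intervals overlap. Rpl3l itself had 231 CPM at 2% to 4% and 162 CPM at 4% or more. At the same Acta1 level the Sham droplets had far more Rpl3l. It made up 97.9% of the pair in 102 droplets at 2% to 4% and 97.8% in 359 droplets at 4% or more.

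In the MOV droplets with at least 4% Acta1, Eef1a2 made up 47.5% of its pair, against 98.4% in the Sham droplets. The part of free RNA in these shares was not tested. With the libraries merged without integration, fewer MOV droplets fell into the fibre clusters, and Rpl3l made up 33.8% of the pair (23.2 to 45.7), the ribosomal protein share was 13.1% and the member median against MOV quiescence-marker MuSCs was −1.09 rather than −0.05. With Acta1 at 2% or more it was −1.02.

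**Figure D4:**
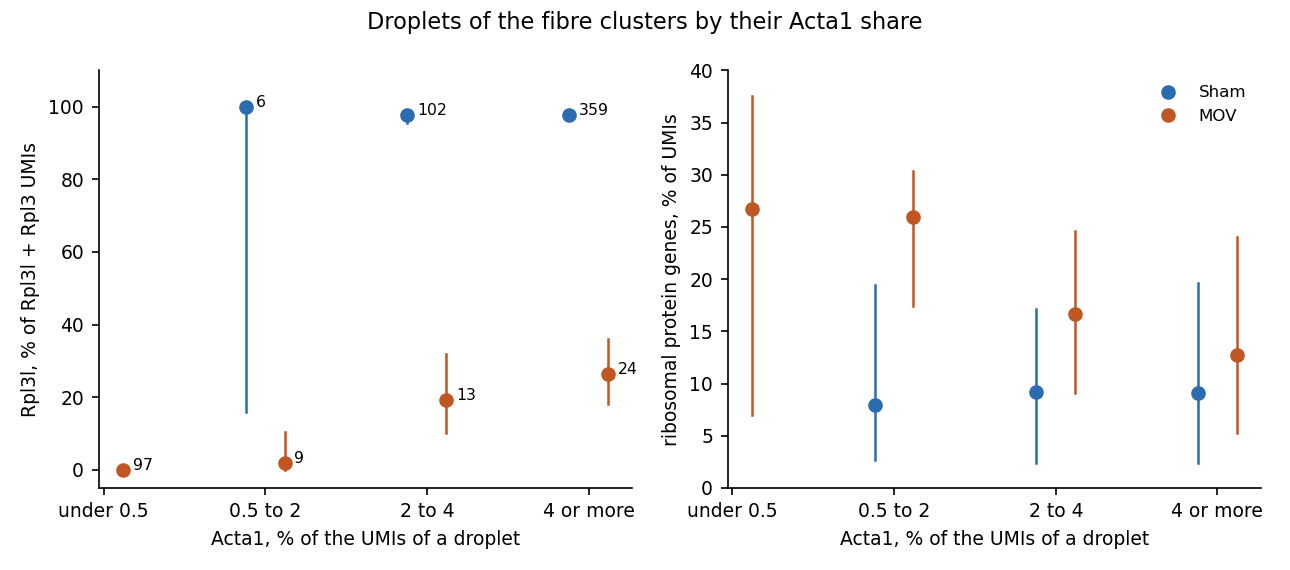
Droplets of the fibre clusters of both libraries by the percent of their UMIs on Acta1, without the shared barcodes. On the left is the Rpl3l share of the pair with 95% intervals and droplet numbers, and on the right the ribosomal protein share of the median droplet with the range over droplets. In MOV the Rpl3l share goes from 0.0234% under 0.5% Acta1 to 26.5% at 4% or more, and in Sham it is 97.8% at 4% or more.

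Rps27l, which is a known target of p53, was the copy that differed most between MuSC states. In the MOV library it had 351 CPM in quiescence-marker, 453 in immediate-early, 514 in interferon, 517 in matrix, 620 in activated and 625 CPM in histone-high MuSCs, and 978 CPM in G2/M and 1067 CPM in S-phase MuSCs. The Sham quiescence-marker MuSCs had 350 CPM. The log2 ratio to non-cycling MuSCs was 1.05 (1.00 to 1.11) in S-phase and 0.93 (0.89 to 0.97) in G2/M MuSCs, and that of quiescence-marker MuSCs to the other MuSCs was −1.14 (−1.23 to −1.05). The S-phase marker list summed to 2283 CPM in S-phase and 2177 CPM in histone-high MuSCs, although their Rps27l levels differed. Median depths were 64107 UMIs in S-phase, 44695 in G2/M and 16792 in non-cycling MuSCs, and the part of depth was not tested. Rps27 itself went from 2576 CPM in quiescence-marker to 1932 CPM in S-phase MuSCs, so that the share of Rps27l in the pair went from 12.0% (11.3 to 12.7) to 35.6% (34.7 to 36.5). Early and late myocytes stood between, with 682 and 734 CPM of Rps27l (log2 ratios 0.41 and 0.51 to non-cycling MuSCs).

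Rps19bp1, the partner of Rps19, passed 1.5 fold in S-phase MuSCs, at 106 CPM against 70.4 CPM in non-cycling ones (log2 ratio 0.59). It did not pass in G2/M MuSCs (98.5 CPM, 0.49), histone-high MuSCs (80.6 CPM, 0.20) or late myocytes (94.0 CPM, 0.42). Rpl7l1 had 106 CPM in G2/M MuSCs against 79.3 CPM (0.42), 61.7 CPM in matrix MuSCs against 94.9 CPM in the other MuSCs (−0.62) and 118 CPM in interferon MuSCs (0.40). Rps27rt, which is nearly identical to Rps27, had 24.2 CPM in late and 22.1 CPM in early myocytes against 37.0 CPM (−0.61 and −0.74). It took 1.07% of the pair with Rps27 in early myocytes and 1.85% in interferon MuSCs, the ends of the range over the MOV MuSC and myocyte classes. How reads were divided between the 2 genes was decided by the authors' alignment, so its own level is uncertain.

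The other copies held steadier shares. Rpl22l1 had between 38.1% (early myocytes) and 49.1% (activated fibroblasts) of the pair with Rpl22 in the MOV classes, with 43.0% in quiescence-marker and 45.7% in S-phase MuSCs, and 48.3% in the Sham fibre droplets. Rpl36al had 31.1% of the pair with Rpl36a in MOV quiescence-marker, 39.4% in S-phase and 37.2% in G2/M MuSCs, 44.2% in activated fibroblasts, and 51.0% (49.3 to 52.7) in Sham fibre droplets against 30.8% (28.7 to 32.8) in Sham quiescence-marker MuSCs. Rpl7l1 took 1.85% of the pair with Rpl7 in matrix and 4.06% in interferon MuSCs, the ends of the range over the MOV MuSC classes, and 5.59% in Sham quiescence-marker MuSCs.

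**Figure D5:**
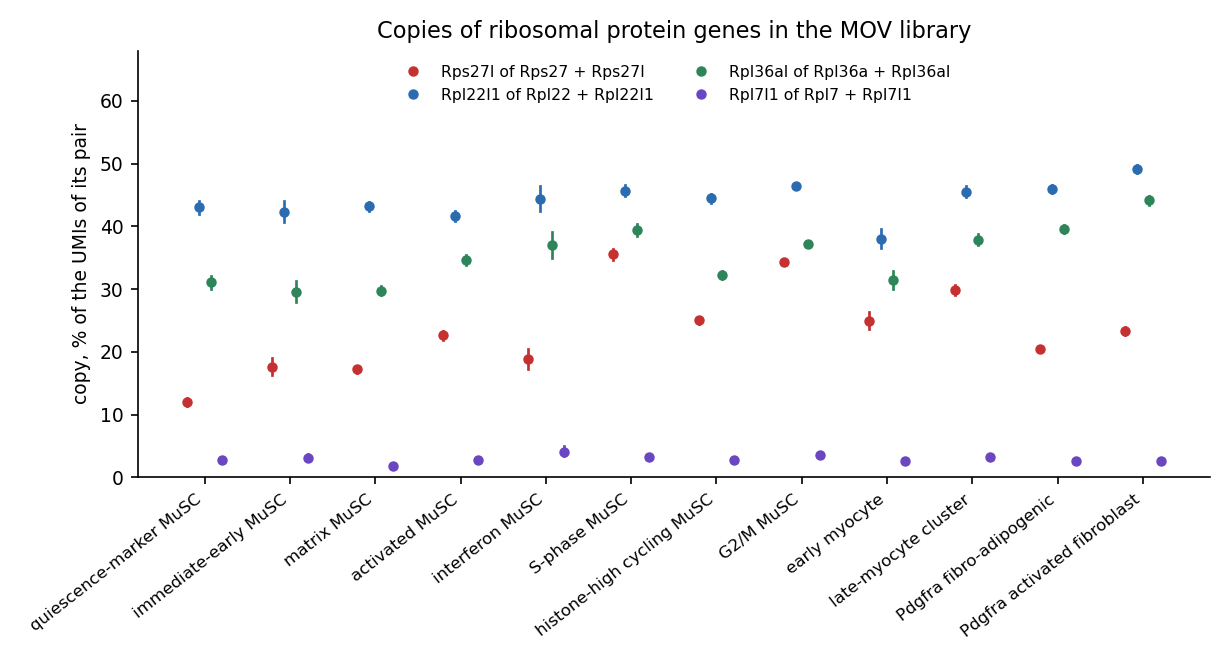
Share of 4 copies in the pair with their core gene (percent) across MuSC, myocyte and Pdgfra classes of the MOV library, with 95% counting intervals. Rps27l goes from 12.0% in quiescence-marker to 35.6% in S-phase MuSCs, while Rpl22l1 stays between 38.1% and 49.1%.

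Pdgfra cells were compared with all MuSCs of the same library. All 77 core genes had CPM ratios below 1 in the Pdgfra cells of both libraries, and only with TMM or median-of-ratios factors did Rplp1 come out higher in the MOV ones. In Sham, 76 of 83 members were at least 1.5 fold lower (32.3% of all genes) and 0 higher (29.5%), with a median log2 ratio of −0.85 against −0.05 for all genes. The Sham reference held 125 MuSCs, and 10 cycling cells gave 539196 of its 1601600 UMIs. In MOV, 47 of 85 were lower (29.7%) and 1 higher (28.0%), with a median of −0.62 against −0.09. The difference in MOV was thus close to the threshold for most genes, and the count fell to 18 with TMM and 9 with median-of-ratios factors, and to 2 at a threshold of 2 fold.

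Rpl3 was among the lowest members in the MOV Pdgfra cells, at 1454 CPM against 2677 CPM in MuSCs (log2 ratio −0.88), together with Rps19bp1 at 40.7 against 85.3 CPM (−1.07) and Rpl7l1 at 49.6 against 90.0 CPM (−0.86). Rplp1 (4886 against 5198 CPM, −0.09) and Rpl37a (2535 against 2906 CPM, −0.20) came closest to the MuSC level. In Sham the lowest were Rpl7l1 (35.4 against 117 CPM, −1.72, on 14 UMIs), Rpl36a (881 against 1888 CPM, −1.10) and Rps19 (1934 against 4128 CPM, −1.09). The closest in Sham were Rps29 (4161 against 5039 CPM, −0.28), Rpl10 (2356 against 2899 CPM, −0.30) and Rplp1 (3954 against 5075 CPM, −0.36). The immune marker list summed to 2737 CPM in the Sham and 86.8 CPM in the MOV fibro-adipogenic cells, with 9 of its 9 genes seen in each, and its part in these values was not tested.

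The 1 higher member in MOV Pdgfra cells was Rpl39l, a copy of Rpl39, which lies at the exit tunnel of the large subunit, and which is best known from the testis. It had 122 UMIs (9.53 CPM) in fibro-adipogenic cells, 100 (9.82 CPM) in activated fibroblasts and 23 (10.4 CPM) in tenocytes of the MOV library. In MuSCs of that library 5 UMIs were counted in all, 0.112 CPM, and the log2 ratio of Pdgfra cells to MuSCs was 6.43 (5.19 to 8.07). The Sham library had 1 UMI in Pdgfra cells and 3 in tenocytes, too few to place it. Rpl39 itself had 3376 CPM in the MOV fibro-adipogenic cells and 3618 CPM in the activated fibroblasts, so that Rpl39l made up 0.282% and 0.271% of the pair.

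The MOV library was compared with the Sham library within quiescence-marker MuSCs, Pdgfra cells and fibre clusters. In quiescence-marker MuSCs 6 of 83 members were at least 1.5 fold higher (29.9% of all genes) and 6 lower (15.4%), with a median log2 ratio of 0.21 against 0.18 for all genes, and 0.02 with median-of-ratios factors. In Pdgfra cells 16 of 84 were higher (20.5%) and 4 lower (39.7%), with a median of 0.29 against −0.27, and with TMM factors 59 were higher. Both comparisons rest on few Sham cells, 93 MuSCs and 29 Pdgfra cells. The Pdgfra cells lay in different clusters, since 268 of the 627 MOV cells were activated fibroblasts, a cluster with 0 Sham cells, and 28 of the 29 Sham cells were in 1 fibro-adipogenic cluster. Within the fibro-adipogenic class alone, Rps2 had 4603 CPM in MOV and 2432 CPM in Sham, and Rps27 had 1516 and 3222 CPM. In fibre clusters 77 of 84 members were higher in MOV (62.1% of all genes) and 1, Rpl3l, was lower (19.7%), with a median of 1.52 against 1.27. Because most of these MOV droplets lacked fibre RNA, the comparison mostly sets other cells against fibres, and with Acta1 at 2% or more the median was 0.49 with 33 members higher.

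The lower members in MOV were Rps27, Rps28, Rps29 and Rps27rt in both cell types, and Rps21 and Rpl7l1 in the MuSCs. Rps27 had 2576 CPM in MOV and 5250.5 CPM in Sham quiescence-marker MuSCs (log2 ratio −1.03, −1.08 to −0.97), and 1539 against 3222 CPM in Pdgfra cells (−1.07, −1.15 to −0.98). Rps28 had 2086 against 3902 CPM (−0.90) and 1488 against 2730 CPM (−0.88). Rps29 had 2916 against 4599 CPM in the MuSCs (−0.66) and was also lower in Pdgfra cells (−0.85). Rps21 was lower in the MuSCs, at 3308 against 5258 CPM (−0.67), and had a log2 ratio of −0.22 in Pdgfra cells, which did not pass. Rps27rt had 41.3 against 110 CPM in the MuSCs (−1.41, −1.82 to −0.99), on 83 UMIs in Sham, and −1.51 (−2.05 to −0.92) in Pdgfra cells. Both cell types come from the same pair of libraries, and a property of the libraries and an effect of overload cannot be told apart here.

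The higher members in MOV also overlapped between the cell types. Rps2 had 5052 against 2933 CPM in quiescence-marker MuSCs (0.78, 0.72 to 0.85) and 5047 against 2432 CPM in Pdgfra cells (1.05, 0.96 to 1.15). Rpl29 had 2624 against 1331 CPM in the MuSCs (0.98, 0.88 to 1.08) and a log2 ratio of 0.71 in Pdgfra cells. Rpl10a had 2808 against 1733 CPM (0.70 in both). Rpsa (0.66 and 1.00), Rplp0 (0.60 and 0.73) and Rpl15 (0.59 and 0.70) completed the 6 genes that were higher in the MuSCs, and all 6 were higher in the Pdgfra cells. How often genes outside the family were higher, or lower, in both cell types is not given here. The overlap is therefore not shown to be particular to the family. In the fibre clusters Rpl19 (4564 against 884 CPM, 2.37) and Rps10 (3834 against 767 CPM, 2.32) had the highest ratios after Rpl3, while Rps29 was at 2845 against 2911 CPM (−0.03).

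Other genes of translation and ribosome building, taken from 6 lists, were followed in the same comparisons. In Sham fibre droplets against quiescence-marker MuSCs, where 50.2% of all genes were lower and 35.2% higher, 2 ribosomal proteins outside the symbol rule were lower, with log2 ratios of −1.62 for Rack1 and −1.46 for Fau. Of the 34 ribosome biogenesis genes with enough UMIs 31 were lower and 1 higher, with a median of −2.92. The nucleolar proteins Nop58 (12.7 against 1009 CPM, −6.31) and Fbl (6.72 against 264 CPM, −5.30) fell the most, while Nop10 had 255 against 198 CPM (0.36). Of 31 initiation factors 20 were lower and 1 higher (median −1.12), among them Pabpc1 (−4.78) and Eif4a1 (−4.50). Of 9 elongation genes 5 were lower and 2 higher (median −0.65), shares close to those of all genes, and of 10 genes of transcription and growth control 7 were lower and 1 higher (median −1.61).

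The mitochondrial ribosomal proteins, which are coded in the nucleus and build the separate ribosome of mitochondria, ran against the cytosolic ones in these droplets. Of 77 genes 65 were higher and 2 lower, with a median log2 ratio of 1.68. Mrpl34 had 175 against 2.64 CPM (6.05, 4.19 to 9.10, on 2 UMIs in the MuSCs) and Mrpl18 had 345 against 10.6 CPM (5.03), while Mrpl52 was at 206 against 287 CPM (−0.48). The cytosolic and mitochondrial sets thus moved in opposite directions between MuSCs and fibres, under CPM scaling and under both sets of factors, which raise every ratio.

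Among the MOV MuSCs the mitochondrial set also varied where the cytosolic one did not. In quiescence-marker MuSCs 58 of 78 were lower and 0 higher (median −0.98), where 31.2% of all genes were lower and 18.4% higher. In G2/M MuSCs 55 were higher and 0 lower (0.79), where 19.6% of all genes were higher and 22.6% lower. The cytosolic members had medians of 0.04 and −0.08 there. Of 36 biogenesis genes 8 were higher and 1 lower in G2/M MuSCs (median 0.25), so that the higher ones were close to their share over all genes. Mrto4 was at 193 against 116 CPM (0.74), Dkc1 at 142 against 85.6 CPM (0.73) and Ppan at 33.5 against 52.2 CPM (−0.64). In Pdgfra cells of the MOV library 32 of 36 biogenesis genes (median −0.98), 48 of 78 mitochondrial ribosomal proteins (−0.73), 19 of 31 initiation factors (−0.68) and 5 of 9 elongation genes (−0.62) were lower than in MuSCs, and 0 of each were higher, where 29.7% of all genes were lower and 28.0% higher.

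The genes whose level followed the summed ribosomal protein genes most closely were found by the Pearson correlation of log2(CPM + 1) over 15 classes and libraries with at least 50 cells. They were Rack1 (r = 0.990), a protein of the small subunit, Fau (0.982), which is cut to give a small subunit protein, Pnn (0.981), a splicing protein, Ppp2ca (0.978), a catalytic subunit of protein phosphatase 2A, and Pus7 (0.977), a pseudouridine synthase. The 77 core genes themselves had a median r of 0.970, with 63 at 0.9 or more and the lowest, Rps29, at 0.346. Of 10785 genes with at least 200 UMIs the median r was 0.354, and 2.82% of the genes outside the list reached 0.9. The 15 points come from 2 libraries of different depth and include a single far point, the Sham fibre droplets, so these values are a description.

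The amount of a gene within the family was most even for Rpl6, which ran from 1.23% to 1.46% of all ribosomal protein UMIs over the same groups (coefficient of variation 4.33%), and for Rpl22 (4.49%). The median coefficient over the 85 genes was 10.9%. Among the core genes Rps29 (41.5%) and Rps27 (41.3%) were the most uneven, followed by Rpl3 (30.9%) and Rps28 (27.5%). Rps29 reached its highest part of the family in Sham fibre droplets (3.05%), Rps27 in Sham quiescence-marker MuSCs (2.17%) and Rpl3 in S-phase MuSCs (1.08%).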

How the data were processed

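Per the labels, single cells were captured with a 10x Genomics 3′ kit, and the authors deposited raw UMI counts per gene and cell for 1 Sham and 1 MOV library. The submitters' processing notes name Cell Ranger 6.0.0, R 4.0.2, Seurat 4.0.2 and the build mm10. A transcript is counted once at its 3′ end, and reads shared by near-identical copies or pseudogenes make those counts uncertain.

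Cells with less than 10% mitochondrial UMIs were kept, and predicted doublets (0.8% per 1000 cells, scanpy 1.11.5) were removed. With the ribosomal protein genes left out, the libraries were normalized, integrated and clustered in Seurat 5.3.0 (sctransform 0.4.2, 3000 variable features, 50 components, 20 neighbours, resolution 1 for all and 2 for myogenic cells). Clusters were named from 18 marker lists. The scoring, the Pdgfra rule (at least 2 times the overall level), the histone rule (at least 5 of the top 10 genes) and the rule on shallow clusters were chosen after the clusters were seen and before the values of the members were computed here.

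UMIs were summed per class and library and divided by the total (CPM), with the scripts in Python 3.11.15 (numpy 2.4.6, scipy 1.17.1, pandas 2.3.3, matplotlib 3.10.9) and R 4.3.3. Intervals are exact (Poisson, Clopper-Pearson or conditional binomial, 95%). A gene was called at 1.5 fold with at least 20 UMIs over the 2 groups, with no test, since each condition has 1 library. Scripts were checked on simulated data. Alternatives used TMM factors (edgeR 4.0.16) and median-of-ratios factors (DESeq2 1.42.0), other limits and other clusterings.

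The members, the 6 gene lists and the rules were chosen with earlier results of these data known. Genes named in the text are the copies with their core gene, the 5 members with the most UMIs, in each comparison the 3 highest and 3 lowest members by log2 ratio less the member median (at least 200 UMIs), from each list up to 2 highest and 2 lowest genes in up to 2 comparisons, Eef1a1, Eef1a2, Fau and Rack1, the member under 20 UMIs, and the 5 genes most like the summed members. Other named members were chosen after their values were seen, as were the genes whose start sequence is printed. Start sequences are from RefSeq. Some genes that the rule names are not reported here.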

Additional observations from a re-analysis of the deposited data

Results flagged for a closer look

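Between MOV and Sham, 3 of 85 members passed 1.5 fold in opposite directions in different cell types, and the difference between the cell types was not tested. Rpl7l1 had a log2 ratio of −0.75 in quiescence-marker MuSCs and 1.53 in the fibre clusters. Rps21 had −0.67 in quiescence-marker MuSCs and 0.88 in the fibre clusters. Rps28 had −0.90 in quiescence-marker MuSCs, −0.88 in Pdgfra cells and 0.82 in the fibre clusters. All 3 rest on the MOV droplets of the fibre clusters, whose markers went against that name.

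Among the Sham cells removed for their mitochondrial share, Rpl3l made up 12.5% of the pair with Rpl3 (50 and 351 UMIs in 362 cells, 9.40% to 16.1%), against 0.106% in the 794 removed MOV cells (3 and 2832 UMIs). Symbols ending in -ps, left out of the list, had 0.564 UMIs per 1000 UMIs of the members in MOV and 0.396 in Sham.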

How the results depend on the processing

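No paired analysis was possible because each condition has 1 library. A median is counted as moved when it left the 95% order-statistic interval of the median over the members of the main analysis. Every median past 1.5 fold kept its sign. Of the smaller ones, that of late myocytes changed sign with a mitochondrial limit of 5%, that of early myocytes with median-of-ratios factors, mitochondrial genes left out of the totals (0.0053) and the mean of per-cell CPM (0.011), and that of interferon MuSCs with median-of-ratios factors (0.0043) and the mean of per-cell CPM (0.0097). Leaving aside the Acta1 split and the removal of shared barcodes, which were added after the data were seen, 124 medians stayed and 53 moved. The cause of a move was not tested except where the factors themselves shift every ratio.

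With a mitochondrial limit of 5%, the member median was −0.16 for MOV fibre clusters against quiescence-marker MuSCs, 0.021 for late myocytes, 0.043 for activated MuSCs and −0.64 for Sham Pdgfra cells against MuSCs. With a limit of 20%, it was −0.39 for MOV fibre clusters, −0.30 for late myocytes and 1.21 for MOV against Sham in fibre clusters. With doublets kept, it was −0.26 for MOV fibre clusters, −0.023 for early and −0.11 for late myocytes and 1.29 for MOV against Sham in fibre clusters. With the members kept in the clustering, it was −0.23 for MOV fibre clusters, −0.040 for early and −0.11 for late myocytes, −0.063 for immediate-early MuSCs and −0.76 for Sham Pdgfra cells. Merged without integration, it was −1.09 for MOV fibre clusters, −0.030 for early myocytes, −0.073 for immediate-early MuSCs and 0.45 for MOV against Sham in fibre clusters. At resolution 1 it was −0.15 for early myocytes. With the mean of per-cell CPM it was −0.31 for MOV fibre clusters, −0.14 for G2/M and −0.092 for immediate-early MuSCs, −0.68 for MOV Pdgfra cells and 1.23 for MOV against Sham in fibre clusters.

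With TMM factors the medians were −0.74 for Sham and −0.19 for MOV fibre clusters, −0.14 for late myocytes, 0.082 for S-phase, −0.16 for histone-high, 0.18 for quiescence-marker, −0.20 for immediate-early, 0.11 for activated and −0.076 for interferon MuSCs, −1.21 for Sham and −0.50 for MOV Pdgfra cells, and for MOV against Sham 0.72 in Pdgfra cells and 0.72 in fibre clusters. With median-of-ratios factors they were −0.37 for Sham and −0.13 for MOV fibre clusters, 0.046 for early and −0.070 for late myocytes, 0.14 for S-phase, −0.11 for histone-high, −0.050 for G2/M, 0.15 for quiescence-marker, −0.10 for immediate-early and 0.094 for activated MuSCs, −0.43 for MOV Pdgfra cells, and for MOV against Sham 0.024 in quiescence-marker MuSCs, 0.41 in Pdgfra cells and 0.22 in fibre clusters. With Acta1 at 2% or more, chosen after the data were seen, they were −1.02 for MOV fibre clusters and 0.49 for MOV against Sham in fibre clusters.

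Counts at 1.5 fold moved most with the factors. The 78 lower members of Sham fibre droplets became 49 with TMM and 29 with median-of-ratios factors, the 47 lower members of MOV Pdgfra cells 18 and 9, and for MOV against Sham the 16 higher members of Pdgfra cells 59 and 28 and the 77 of fibre clusters 47 and 17 (34 merged without integration, 33 with Acta1 at 2% or more). At a looser threshold, a ratio of 5 to 4, the MOV Pdgfra cells had 74 lower members and MOV against Sham in Pdgfra cells 40 higher. At 2 fold the Sham Pdgfra cells had 10 lower members in place of 76, the MOV ones 2, and MOV against Sham in Pdgfra cells 4 higher. Leaving out cells under 2000 UMIs, mitochondrial genes from the totals, or the shared barcodes moved 0 of the 17 medians. Some clusterings did not give every class, and 14 of 17 comparisons could be made with a limit of 5% or at resolution 1.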

Other observations

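The ribosomal protein share of the other cell types of the MOV library lay with that of the Pdgfra cells and tenocytes rather than with that of the MuSCs. Endothelial cells stood at 17.7% (33 cells), mural cells at 17.2% (34 cells), immune cells at 16.5% (77 cells) and Schwann cells at 13.4% (80 cells). In the Sham library the same types stood at 13.8% (8 cells), 8.84% (5 cells), 12.1% (2 cells) and 9.68% (10 cells). The last and the mural value lay near or below the 9.53% of the Sham fibre droplets, on few cells.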
